A study of Homo sapiens with 2 samples.

Results

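The 10 genes described here are transcription factors and splicing regulators that drive or oppose the epithelial-mesenchymal transition (EMT), together with vimentin. They are SNAI1, SNAI2, TWIST1, TWIST2, ZEB1, ZEB2, ESRP1, ESRP2, GRHL2 and VIM, taken by gene symbol from tables of 23375 gene rows, and all 10 had a row. RNA was sequenced from 786-O, an established line of human clear cell renal carcinoma that lacks functional VHL, and from an isogenic 786-O line in which SETD2 was knocked out with a zinc finger nuclease. SETD2 is the methyltransferase that trimethylates histone H3 at lysine 36 along transcribed genes. Both lines grew in RPMI1640 with 10% serum and received no other treatment. Whether the knockout line is a single clone is not given in the sources used here.

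There was 1 library per line, so the differences below have no replicate check and hold for these cultures, not for SETD2 loss in general. The libraries held 62304084 wild-type and 50670012 knockout fragments. SETD2 itself had 4908 wild-type and 1404 knockout fragments, a knockout to wild-type ratio of 0.334. Ratios are of fragments after TMM scaling (a trimmed mean of gene-wise log ratios sets the library factor), CPM is fragments for each 1e6 of scaled library size, and intervals are exact 95% intervals that cover counting error only. RPKM, as deposited, is reads divided by gene length and library size, and is used to compare levels between genes. Higher and lower refer to the knockout library, and a gene was given either name only if all of its interval lay beyond 1.5-fold. Of 16894 genes that reached 10 reads in the sum of the libraries, 19.6% met this in either direction, 10.4% as higher and 9.17% as lower. Among genes with at least 100 reads in 1 library the share was 20.3%. In RNA from whole cultures, fewer cells of a type and less RNA per cell cannot be told apart.

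In EMT, epithelial cells lose polarity and junctions and gain a motile, mesenchymal shape. SNAIL, ZEB and TWIST factors bind E-box sequences and repress epithelial genes such as that of E-cadherin, while ESRP proteins maintain epithelial splicing and GRHL2 activates junction genes. ZEB factors and the microRNAs of the miR-200 family repress each other. Renal tubular cells derive from mesenchyme, and clear cell renal carcinomas often express vimentin, the intermediate filament protein of mesenchymal cells, beside simple keratins.

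The miR-200 family is shown first because its precursor rows and its ZEB targets were both measured here. From RefSeq (GRCh38.p14), the mature sequences fall into 2 groups by seed, bases 2 to 8, which is in capitals. The first 3 share the seed AAUACUG and the last 2 the seed AACACUG.
hsa-miR-200b-3p: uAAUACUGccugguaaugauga
hsa-miR-200c-3p: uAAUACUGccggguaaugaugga
hsa-miR-429: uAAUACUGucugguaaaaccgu
hsa-miR-200a-3p: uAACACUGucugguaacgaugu
hsa-miR-141-3p: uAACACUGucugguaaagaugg

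Matches to these seeds (CAGTATT and CAGTGTT) were counted in the longest 3′ UTR of each gene among GENCODE 29 basic transcripts. ZEB1 had 9 in 2549 bases and ZEB2 had 9 in 5370 bases. Of 2555 3′ UTRs of other genes between 0.8 and 1.25 times as long as that of ZEB1, 0% held as many, and of 1172 in the same range around ZEB2, 0.0853% did. ESRP1 had 2 matches, SNAI2 and GRHL2 had 1 each, and SNAI1, TWIST1, TWIST2, ESRP2 and VIM had 0. Over all 19089 3′ UTRs, of any length, 28.2% held at least 1 match. The first match to the AAUACUG seed in ZEB1 and in ZEB2 is printed below with its flanks, the match in capitals.
ZEB1 site: ttgttttatcttatCAGTATTa
ZEB2 site: gcactaccatacatCAGTATTt

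The window from 250 bases before to 50 bases after a gene's start was available from RefSeq for ZEB1, ZEB2, TWIST2 and VIM. It was searched on both strands for CACCTG, the E-box form that SNAIL and ZEB zinc fingers bind. Of 35116 such windows over all genes, 20.6% held at least 1 match and 0.635% held 3 or more. ZEB1 has 7 annotated starts, and 2 of its windows held a match. The window with 3 matches (chr10:31318966-31319265, plus strand, GRCh38.p14) also contains a start of the antisense gene ZEB1-AS1 on the other strand. That start lies 121 bases upstream of the ZEB1 start. Both genes had fragments in their rows, but which starts were used was not measured. Another ZEB1 window, chr10:31320304-31320603, also contains a ZEB1-AS1 start and held 0 matches. Of the windows with a ZEB1-AS1 start, the one with the most matches is printed. Capitals mark CACCTG or its complement CAGGTG. The single windows of ZEB2, TWIST2 and VIM held 0 matches.
ZEB1 window: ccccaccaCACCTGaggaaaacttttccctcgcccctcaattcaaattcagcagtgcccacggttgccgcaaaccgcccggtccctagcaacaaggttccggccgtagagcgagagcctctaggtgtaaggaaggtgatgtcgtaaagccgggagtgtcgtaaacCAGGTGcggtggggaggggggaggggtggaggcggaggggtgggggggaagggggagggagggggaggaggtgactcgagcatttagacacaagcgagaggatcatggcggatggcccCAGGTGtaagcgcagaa

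Of the 10 genes, 6 reached 10 reads over the libraries together, and 4 (TWIST1, TWIST2, ESRP1 and GRHL2) had 3 fragments or fewer in each. Of the 6, SNAI1 was counted as higher, ESRP2 and VIM as lower, and SNAI2, ZEB1 and ZEB2 as neither. The share counted in either direction was 50%, beside 19.6% of all tested genes (10.4% higher and 9.17% lower). With a limit of 2-fold, SNAI1 remained higher and ESRP2 lower, beside 5.75% of all tested genes higher and 3.37% lower, while VIM did not. Transcripts of the SNAIL and ZEB factors and of vimentin were therefore measured in both libraries, while those of TWIST factors, ESRP1 and GRHL2 were at or under the floor of 3 fragments.

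**Figure D1:**
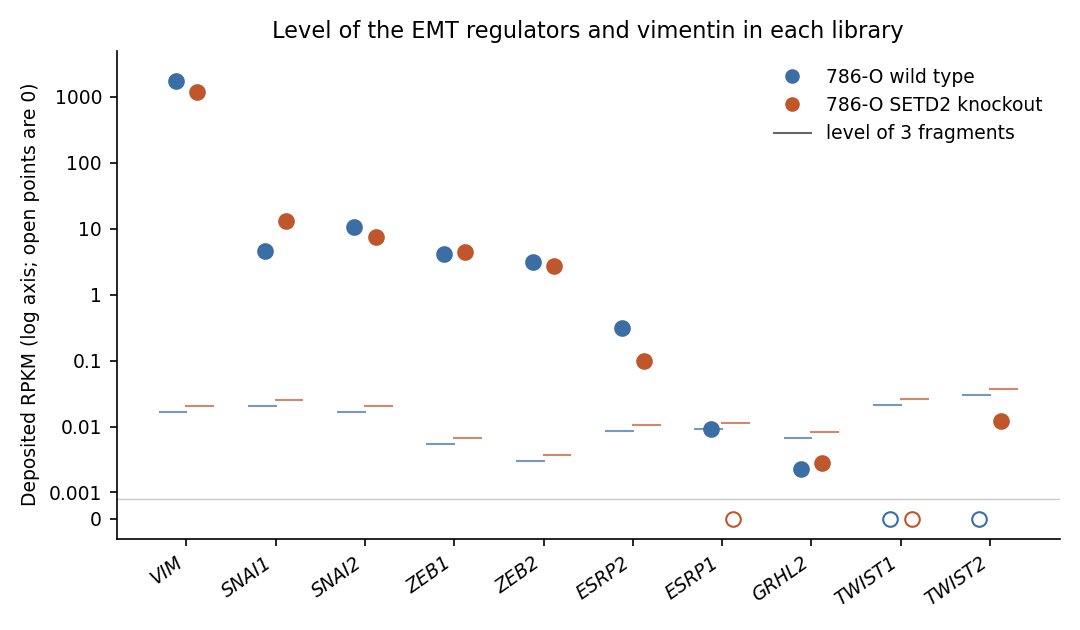
Deposited RPKM (log axis) of the 10 genes in the wild-type library (blue) and the knockout library (orange), with open points for values of 0 and short lines at the level of 3 fragments. VIM stands at 1734 and 1192 RPKM, the SNAIL and ZEB factors lie between 2.75 and 13.1, ESRP2 is at 0.31 and 0.1 RPKM, and ESRP1, GRHL2, TWIST1 and TWIST2 lie at or under the lines.

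The SNAIL pair exchanged order between the libraries. SNAI1 (hg19 chromosome 20, 48599513 to 48605420) encodes the zinc finger repressor SNAIL, and its row held 661 fragments in the wild-type and 1556 in the knockout library, or 4.52 and 13.1 RPKM. The knockout level was 2.75-fold higher (interval 2.51 to 3.01), a log2 ratio of 1.46 at percentile 90.9 of all tested genes. SNAI2 (chromosome 8, 49830239 to 49833999) encodes its paralog SLUG, and it had 1921 and 1106 fragments, or 10.6 and 7.54 RPKM. Its ratio was 0.672, with an interval of 0.623 to 0.723 that spanned the 1.5-fold limit. By RPKM, SNAI1 made up 29.8% of the pair in the wild-type library (interval 28.0% to 31.7%) and 63.5% in the knockout library (61.7% to 65.3%). The SNAI1 ratio was 4.09 times that of SNAI2 (interval 3.64 to 4.60), a quantity that does not depend on how the libraries are scaled. The summed RPKM of both genes was 15.1 in the wild-type and 20.6 in the knockout library. SNAI3, the least studied family member, was at 0.259 and 0.579 RPKM, with a ratio of 2.12 whose interval (1.41 to 3.23) also spanned the limit.

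The ZEB factors differed little. ZEB1 (chromosome 10, 31608101 to 31818742), a repressor with zinc finger clusters at both ends and a homeodomain between them, had 2252 and 1945 fragments, or 4.11 and 4.38 RPKM. Its ratio of 1.01 (interval 0.948 to 1.07) included no difference. ZEB2 (chromosome 2, 145141942 to 145277958), its paralog, had 3123 and 2231 fragments, or 3.12 and 2.75 RPKM, and a ratio of 0.833 (interval 0.789 to 0.880). By RPKM, ZEB1 made up 56.8% of the pair in the wild-type library (interval 55.5% to 58.1%) and 61.4% in the knockout library (59.9% to 62.8%). The ZEB1 ratio was 1.21 times that of ZEB2 (interval 1.11 to 1.31).

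The antisense neighbour of ZEB1 did not keep the proportion of its partner. The ZEB1-AS1 row ends 76 bases before the ZEB1 row begins, so that the hg19 rows do not overlap. The transcripts may overlap, since annotated ZEB1 starts at 31318417 and 31318818 (GRCh38.p14) lie downstream, on the other strand, of the ZEB1-AS1 start at 31319095. ZEB1-AS1 had 308 wild-type and 410 knockout fragments, or 1.62 and 2.66 RPKM, with a ratio of 1.55 (interval 1.34 to 1.81). That ratio was 1.54 times that of ZEB1 (interval 1.31 to 1.81). ZEB2-AS1 overlaps the ZEB2 row by 778 bases, and it had 0 and 3 fragments. Whether reads were assigned by strand is not given in the sources used here. Fragments from overlapping rows or transcripts therefore cannot be told apart, for ZEB1-AS1 and ZEB1 as for ZEB2-AS1 and ZEB2.

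Rows of the miR-200b, miR-200a and miR-429 hairpins, which lie together on chromosome 1, were lower as a group in the knockout library. Such rows count fragments of longer transcripts over the hairpin and not mature microRNA. MIR200B gave 29 and 6 fragments, with a ratio of 0.241 (0.0819 to 0.592), and MIR429 had 56 and 15 (0.312, 0.164 to 0.560). MIR200A had 21 and 10 fragments, with a ratio of 0.555 and an interval of 0.234 to 1.23. Summed over the 3 rows, 106 wild-type and 31 knockout fragments gave a ratio of 0.341 (interval 0.221 to 0.513). The rows are close together and may share a primary transcript, so they are not independent. At the other family locus, on chromosome 12, MIR141 had 2 and 0 fragments and MIR200C had 0 in each library, which did not allow a ratio. Over all 6 tested microRNA and antisense rows, 0 were higher and 2 lower, or 33.3% beside the 19.6% over all genes. The lower rows were the neighbouring MIR200B and MIR429, and the median log2 ratio was -0.61. The matched seeds are those printed above for ZEB1 and ZEB2, whose ratios were 1.01 and 0.833.

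**Figure D2:**
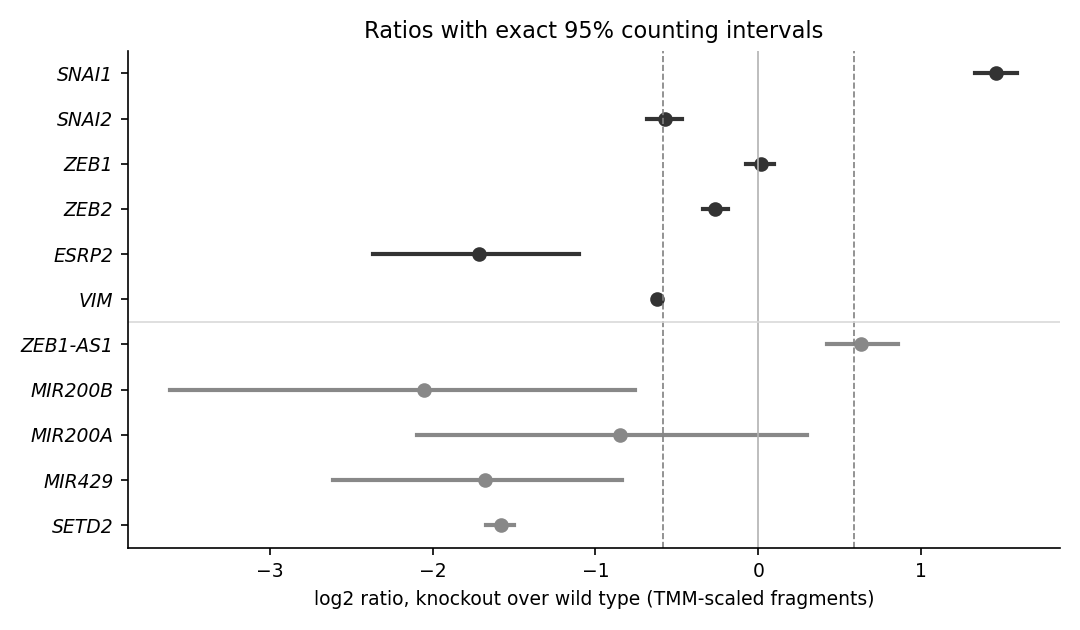
Log2 ratio of knockout to wild-type fragments, TMM-scaled, for the 6 measured genes (black) and, for comparison, ZEB1-AS1, the hairpin rows and SETD2 (grey), with bars for the exact 95% counting interval and dashed lines at 1.5-fold. SNAI1 is the gene of the set to the right of the dashed lines, ESRP2 and VIM lie to the left with their whole intervals, and ZEB1 sits at 0.

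TWIST factors, basic helix-loop-helix proteins of mesoderm and neural crest, were not detectable at this depth. TWIST1 (chromosome 7, 19155091 to 19157295) had 0 fragments in each library, which allows up to 0.0210 RPKM in the wild-type and 0.0259 RPKM in the knockout library. TWIST2 (chromosome 2, 239756673 to 239795893) had 0 and 1 fragments. Their partners were measured. Of 7 tested basic helix-loop-helix partners and ID proteins, 0 were higher and 0 lower, or 0% beside the 19.6% over all genes. Their median log2 ratio was -0.21 beside 0.02 over all tested genes. TCF3, which encodes the E proteins that pair with TWIST, was at 23.7 and 20.2 RPKM (ratio 0.808), and ID3, an inhibitor that binds E proteins, was at 75.1 and 75.2 RPKM (ratio 0.947).

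Of the epithelial regulators, ESRP1 and GRHL2 had almost no fragments, while ESRP2 was measured at a low level that was lower in the knockout library. ESRP2 (chromosome 16, 68262450 to 68270136) encodes an RNA-binding protein that favours epithelial exons. It had 107 wild-type and 28 knockout fragments, or 0.31 and 0.1 RPKM, percentiles 25.1 and 14.5 of all tested genes by RPKM, so that the knockout value was 3.28-fold lower (2.14-fold to 5.16-fold). The log2 ratio of -1.69 was at percentile 3.04 of all tested genes. The ESRP2 row overlaps the NFATC3 row by 713 bases, and NFATC3, a calcium-regulated transcription factor, had a ratio of 1.14 (interval 1.08 to 1.20). ESRP1 (chromosome 8, 95653364 to 95719694), its paralog, had 3 wild-type and 0 knockout fragments. By RPKM, ESRP1 made up 2.88% of the pair in the wild-type library (interval 0.598% to 8.17%). GRHL2 (chromosome 8, 102504668 to 102681952), a transcription factor of epithelial junctions, had 1 fragment in each library. No ratio is given for ESRP1 or GRHL2, since both libraries were at or under the floor. Of the relatives of GRHL2, GRHL1 was at 0.728 and 0.630 RPKM (ratio 0.819, interval 0.664 to 1.01). TFCP2, a ubiquitous member of the same wider family, had 329 and 12 fragments and was 23.5-fold lower (interval 13.3-fold to 46.0-fold).

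Most other splicing regulators of EMT had ratios near 1. Of 26 tested, 2 were higher and 3 lower, a share of 19.2% beside the 19.6% over all genes, and the median log2 ratio was -0.14. RBFOX2, which promotes mesenchymal exons, was at 15.7 and 16.6 RPKM (ratio 0.996, interval 0.967 to 1.03), and RBM47, an epithelial regulator, was at 6.50 and 7.39 RPKM (ratio 1.08). KHDRBS3, a STAR family RNA-binding protein, was 2.27-fold higher (interval 2.07 to 2.49). PTBP2, the neuronal polypyrimidine tract-binding protein, was 2.06-fold lower and its paralog PTBP3 1.59-fold lower. The remaining higher and lower genes, CELF2 with 2 and 17 fragments and MBNL3 with 48 and 11, were scarce.

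Gene totals of 16 transcripts whose splicing ESRP proteins are known to control included 1 higher and 1 lower gene, or 12.5% beside 19.6% (median log2 ratio -0.24). TCF7L2, a Wnt pathway transcription factor, was 1.88-fold higher (interval 1.66 to 2.12), and OSBPL3, an oxysterol-binding protein, was 1.80-fold lower (1.72-fold to 1.88-fold). FGFR2 was at 0.95 and 0.936 RPKM (ratio 0.933), and CD44, the hyaluronan receptor, was at 124 and 92.8 RPKM (ratio 0.710). These totals do not show which exons were used, and exon usage was not analysed here.

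VIM was the most abundant of the 10 genes in each library and was lower in the knockout library by a small factor. VIM (chromosome 10, 17270258 to 17279592) had 317608 wild-type and 177180 knockout fragments, or 1734 and 1192 RPKM, ranks 5 and 11 of all genes by RPKM. It was 1.54-fold lower, a ratio of 0.651 with an interval of 0.647 to 0.654. The narrow interval reflects the depth, and the ratio lies close to the 1.5-fold limit. With libraries scaled by their totals the ratio was 0.686 (interval 0.682 to 0.690), and by the upper quartile 0.685 (0.681 to 0.689), and under either scaling VIM was not counted as lower. Of 13 relatives and linkers of vimentin, 0 were higher and 2 lower, or 15.4% beside 19.6%, with a median log2 ratio of -0.07. NES, which encodes nestin, a filament protein that assembles with vimentin, had 268 and 15 fragments and was 15.3-fold lower (interval 9.12-fold to 27.8-fold). LMNA, a nuclear lamin, was 1.59-fold lower (1.56-fold to 1.62-fold), while PLEC, which links vimentin to junctions, had a ratio of 1.35.

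By RPKM, the order of levels in the wild-type library was VIM, SNAI2, SNAI1, ZEB1, ZEB2 and ESRP2, and in the knockout library SNAI1 stood above SNAI2. In the wild-type library SNAI1 was 1.10 times ZEB1, with a counting interval of 1.01 to 1.20, the closest neighbours in either order. ZEB1 was 1.32 times ZEB2 (interval 1.25 to 1.39) in the wild-type and 1.59 times (1.5 to 1.69) in the knockout library. VIM was 163 times SNAI2 in the wild-type library and 90.9 times SNAI1 in the knockout library. The other neighbours differed by more than their counting intervals, but the spread between cultures was not measured.

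The genes around each member on its chromosome differed in how far they shared its ratio. Over the 50 nearest tested genes, the median log2 ratio was 0.23 around SNAI1, 0.14 around SNAI2, -0.10 around ZEB1, 0.12 around ZEB2 and 0.15 around ESRP2. Relative to these medians, SNAI1 was at 1.23, SNAI2 at -0.72, ZEB1 at 0.11, ZEB2 at -0.38 and ESRP2 at -1.85. The stretches that held the 50 genes differed widely in length. They ran from 132552534 to 157442915 around ZEB2 and from 41348081 to 60031767 around SNAI2, but only from 67218282 to 69342955 around ESRP2. Around VIM the median was -0.54, and VIM was at -0.08 relative to it. Of the 50 genes around VIM, 2 were higher and 19 lower, beside 10.4% and 9.17% of all tested genes. Except for DNAJC1 (log2 ratio -0.71), the lower genes lay at smaller coordinates than VIM. The higher genes, PLXDC2 (1.47) and NEBL (1.02), lay at larger coordinates, so the median pools sides that differed. The adjoining TRDMT1, a transfer RNA methyltransferase, was 2.08-fold lower. RNF114, the row next to SNAI1, had a ratio of 1.5 (interval 1.45 to 1.56). PLA2G15, a lysosomal phospholipase next to ESRP2, was 1.89-fold higher (1.79 to 2). The part of the region as a whole in the VIM ratio was not tested.

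**Figure D3:**
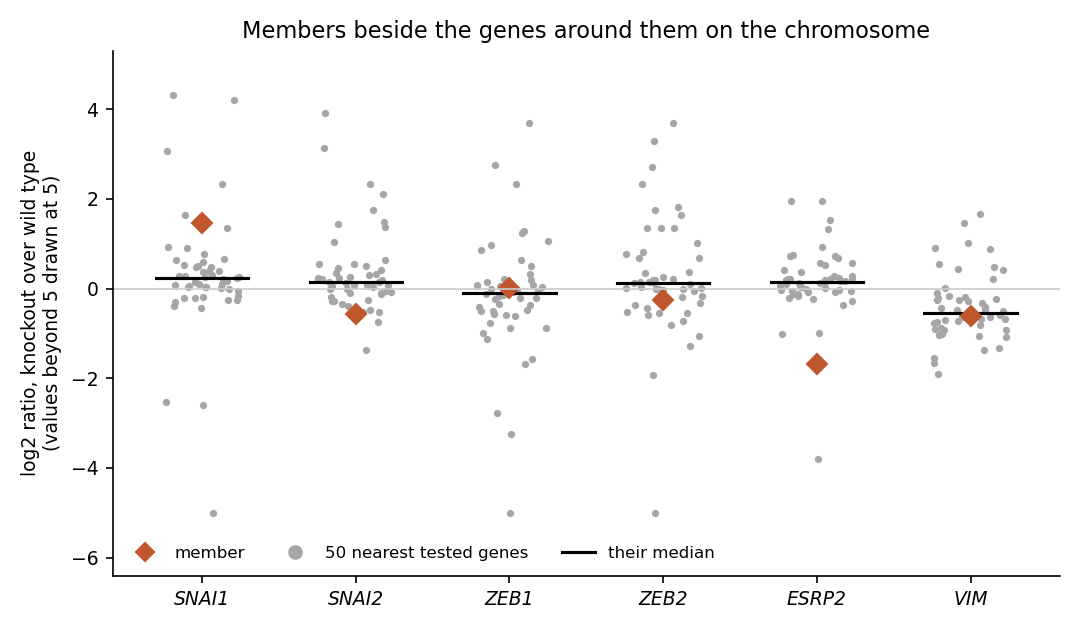
Log2 ratio of knockout to wild type for the 6 measured genes (diamonds), the 50 tested genes nearest to each on its chromosome (grey points) and the median of those 50 (black lines). The diamonds of SNAI1 and ESRP2 lie 1.23 above and 1.85 below their lines, while VIM lies 0.08 below a median of -0.54.

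Epithelial genes that SNAIL and ZEB factors repress or GRHL2 activates differed in both directions. Of 34 tested, 6 were higher and 11 lower, or 50% beside the 19.6% over all genes, and the median log2 ratio was -0.37. E-cadherin, the classical target CDH1, was scarce in each library, with 24 and 1 fragments (0.0581 and 0.00298 RPKM), a ratio of 0.0486 and an interval of 0.00118 to 0.298. KRT19, a simple keratin, had 6757 and 6 fragments, SPINT1, a protease inhibitor, 371 and 2, and EPCAM, an adhesion molecule, 295 and 9. The higher members included DSP, the desmosomal desmoplakin, which was 33.6-fold higher, MAL2, an apical transport protein, 5.09-fold higher, and CDH3, P-cadherin, 3.89-fold higher. KRT8 and KRT18, the keratin pair of simple epithelia, had ratios of 0.836 and 0.770.

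Mesenchymal genes were likewise split. Of 21 tested, 6 were higher and 6 lower, or 57.1% beside the 19.6% over all genes, and the median log2 ratio was -0.04. FN1, fibronectin, was 2.05-fold higher (445 and 961 RPKM), ACTA2, smooth muscle actin, 3.07-fold higher, and TAGLN, an actin-binding protein of contractile cells, 2.36-fold higher. The lower genes included the gelatinase MMP2, 8.01-fold lower, LOX, a collagen cross-linking enzyme, 8.39-fold lower, and CDH11, a mesenchymal cadherin, 7.23-fold lower. CDH2, N-cadherin, was at 79.3 and 85.5 RPKM, with a ratio of 1.02 (interval 1 to 1.04).

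Among 18 tested relatives of the EMT factors, 3 were higher and 2 lower, or 27.8% beside 19.6%, and the median log2 ratio was 0.19. LEF1, a Wnt pathway factor, was 2.82-fold higher (interval 2.29 to 3.5), KLF4, a zinc finger factor of epithelia, 2.02-fold higher, and ELF3, an epithelial ETS factor, 1.62-fold higher. KLF8 gave 34 fragments in the wild-type and 0 in the knockout library, a difference of 9.72-fold when set against 3 knockout fragments, while its exact interval reached down to 7.48-fold lower. OVOL1 and OVOL2, repressors of ZEB1 in epithelia, had 1 and 1 and 0 and 0 fragments.

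The proteins that SNAIL and ZEB factors recruit, and the enzymes that set their stability, had few differences. Of 20 co-regulators, 0 were higher and 1 was lower, or 5% beside the 19.6% over all genes. The lower gene was EZH2, the methyltransferase of H3K27, at 28.1 and 15.1 RPKM and 1.97-fold lower (interval 1.89-fold to 2.05-fold). The corepressors CTBP1 and KDM1A had ratios of 0.821 and 0.939. Of 24 stability regulators, 0 were higher and 1 was lower, or 4.17% beside 19.6%. The lower gene was USP51, whose 14 and 0 fragments differed by 4-fold when set against 3 fragments. Its exact interval reached down to 2.84-fold lower. The most abundant stability regulators were LOXL2, a lysyl oxidase-like protein that stabilises SNAIL, with a ratio of 1.21, and PSMD14, a proteasome deubiquitinase, with 0.954. GSK3B, the kinase that marks SNAIL for degradation, had a ratio of 1.06 (interval 1.02 to 1.11).

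Of 21 upstream signalling genes, 1 was higher and 3 were lower, a share of 19% that was near the 19.6% over all genes, with a median log2 ratio of -0.12. WWTR1, the Hippo pathway coactivator TAZ, was 1.77-fold higher (interval 1.74 to 1.80). SMAD3, a transducer of TGF-beta, was 2.52-fold lower, EPAS1, a hypoxia-inducible factor subunit, 1.81-fold lower, and NFKB1, an NF-kB subunit, 1.71-fold lower. TGFBR2 and SMAD4 had ratios of 1.02 and 0.906.

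**Figure D4:**
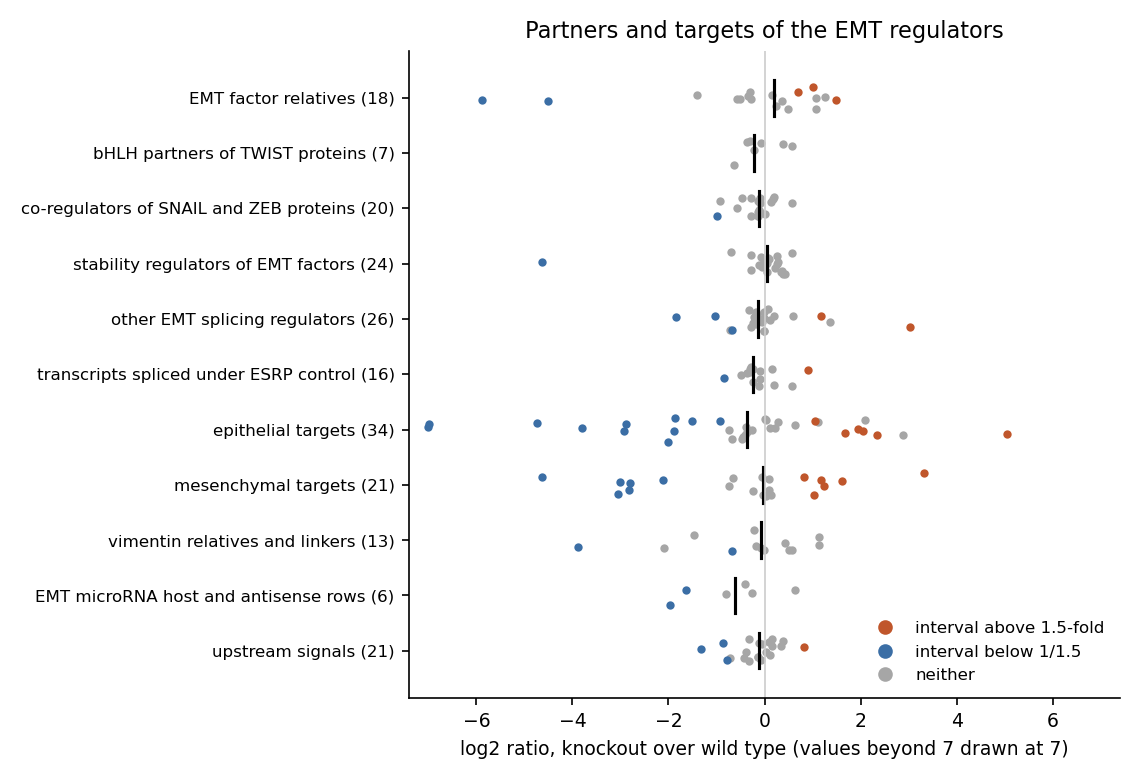
Log2 ratio of knockout to wild type for the tested genes of 11 lists of partners and targets (number tested in brackets), with black lines for list medians and colour for intervals wholly above (orange) or below (blue) 1.5-fold. Epithelial targets spread widely in both directions around a median of -0.37, while co-regulators and stability regulators cluster near 0.

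The label of the lines was compared with marker genes. Of 10 markers of renal carcinoma, 9 were tested, and 1 was higher and 3 were lower, or 44.4% beside the 19.6% over all genes. CDH6 was 1.99-fold higher, while VEGFA was 1.96-fold lower and EPAS1 1.81-fold lower. NDUFA4L2 was scarce, with 27 and 4 fragments, and was 5.79-fold lower (interval 2.02-fold to 22.8-fold). PAX8, the renal lineage factor, was at 43.7 and 30.9 RPKM. CA9, a hypoxia-induced surface enzyme that marks this tumour type, had 1 and 0 fragments. Markers of other cell types were also summed. The 9 fibroblast markers summed to 13.0 and 18.5 CPM, with COL1A2 and DCN at 0 knockout fragments, against 5234 and 3406 CPM for VIM. Of 8 fibroblast markers tested, 1 was higher and 3 were lower, or 50% beside 19.6%, with a median log2 ratio of -0.64. The collagen COL1A1 was 2.25-fold higher, at 6.89 and 15.5 CPM, beside 10.9 and 29.9 CPM for SNAI1. The lower markers were the proteoglycan LUM, 2.72-fold lower, the collagen COL3A1, 8.57-fold lower on 20 and 2 fragments (interval 2.08-fold to 75.7-fold), and COL1A2, with 14 and 0 fragments. The part of such cells in the SNAI1 ratio was not tested. The 7 leukocyte markers summed to 42.2 and 41.9 CPM, mostly CD68 at 38.6 and 39.6 CPM, with the T cell marker CD3E at 0. Of 4 leukocyte markers tested, 1 was higher and 1 was lower, or 50% beside 19.6%, which the sum does not show. The 5 endothelial markers summed to 0.527 and 0.538 CPM. Of 3 tested, 1 was higher and 0 lower, or 33.3% beside 19.6%. The higher marker, TEK, had 4 and 16 fragments, while KDR had 22 and 8 (ratio 0.424, interval 0.163 to 0.989).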

How the data were processed

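The 10 genes and all gene lists were chosen with earlier results of these data known. Per the submitters' processing notes, reads were processed with TopHat2 (2.0.6), Bowtie, HTSeq and the hg19 genome. The order of these steps, the annotation and the strand setting were not given in the sources used here. The authors deposited, for each of the 2 libraries, a read count and an RPKM per gene row. All counts were even, so they were divided by 2 to give fragments. The RPKM values were used as deposited for levels, and as ratios in an alternative.

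Rows on the Y chromosome whose gene symbol also had a row on the X chromosome (23 of 23398 rows) were left out. Genes with at least 10 counts over both libraries were scaled by TMM (edgeR 4.0.16, R 4.3.3), log2 ratios had 0.5 fragments added, and ratios carry exact Clopper-Pearson 95% intervals computed in Python 3.11.15 with scipy 1.17.1. With 1 library per line no test was made. The procedure was tested on simulated data that held counting error only. Variation between cultures or clones was not simulated, so that test does not bear on it. For a gene at 0 in 1 library, only the fold difference given in the text was set against the floor of 3 fragments. Its log2 ratio, as used in medians and figures, kept the 0 with 0.5 fragments added. Other scalings, thresholds, filters and undivided counts (the last chosen after seeing the data) were tried.

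Named genes were all 10 members, SETD2, up to 3 higher and 3 lower genes per list with at least 100 counts in 1 library, ranked by the interval bound nearest to 1, the 2 most abundant genes of a list with none, adjoining rows, and the 2 genes closest in level to each member counted as higher or lower. Other genes named from the lists and markers were chosen after their values were seen. The value of 1 leukocyte marker is not reported here.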

Additional observations from a re-analysis of the deposited data

How the results depend on the processing

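With 1 library per line, no replicate could be left out, and counting intervals do not cover variation between cultures or clones. No paired analysis was possible because each line had a single library. Under 7 alternatives to the scaled ratio, the log2 ratio of SNAI1 ranged from 1.23 to 1.54 and that of ESRP2 from -1.85 to -1.61, and both were counted in the same direction under all 7. VIM was not counted as lower with library totals (log2 ratio -0.54), the upper quartile (-0.55), the deposited RPKM (-0.54) or relative to its 50 nearest genes (-0.08). The number of the 10 genes (6 tested) counted as lower was then 1 with library totals, the upper quartile or RPKM, and also 1 at a 2-fold limit, against 2. With TMM scaling, 9.17% of all tested genes were lower at 1.5-fold and 3.37% at 2-fold. Relative to neighbours, 2 of the 10 genes were lower, with SNAI2 (-0.72) in place of VIM. Without division by gene length, SNAI1 made up 25.6% and 58.5% of its pair in the wild-type and knockout libraries, and ZEB1 41.9% and 46.6%, so that ZEB2 was then the larger of its pair. Of 206 tested entries in the 11 lists, 11 were higher and 21 lower at 2-fold, beside 5.75% and 3.37% of all tested genes. At 1.5-fold, 19 were higher and 32 lower, beside 10.4% and 9.17%. In the ESRP2 and hairpin rows, and in the genes at or under 3 fragments, depth limits what can be said.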

Other observations

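For each of the genes counted as higher or lower, the 2 genes closest to it in log2 CPM over the 2 libraries were found among all tested genes with at least 200 counts in 1 library. With only 2 libraries, such closeness reflects a like level and a like ratio and nothing more. Closest to SNAI1 were TRANK1, with 650 wild-type and 1538 knockout fragments (distance 0.0294), and BTG2, an antiproliferative factor, with 658 and 1691 (distance 0.120). Closest to ESRP2 were TGM5, a transglutaminase, with 108 and 29 fragments, and KLRC1, a natural killer cell receptor, with 107 and 27, both at a distance of 0.0515. Closest to VIM were MYH9, a non-muscle myosin heavy chain, and ACTB, beta-actin, at distances of 0.199 and 0.363. Both had knockout to wild-type ratios nearer to 1 than that of VIM, 0.790 and 0.754.

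The chromosomal neighbourhoods of the genes at or under 3 fragments were measured, although the genes were not. Around TWIST1 the median log2 ratio of the 50 nearest tested genes was -0.27. Of these 50, 3 were higher and 9 lower, beside 10.4% and 9.17% of all tested genes. Around TWIST2, ESRP1 and GRHL2 the median was -0.02, 0.05 and 0.04. HDAC9, the histone deacetylase gene beside TWIST1, had 1843 and 2069 fragments, a ratio of 1.31 (interval 1.23 to 1.39). NCALD, a neuronal calcium sensor gene beside GRHL2, had 7 and 22 fragments and a ratio of 3.67 (interval 1.51 to 10.2).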
